A study of Mus musculus with 6 samples.

Results

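The nuclear genes of the respiratory chain and ATP synthase were examined in activated mouse CD4+ T cells that lacked ABAT, and in WT cells. They were taken by name and class: protein-coding genes whose symbols begin with Ndufa, Ndufb, Ndufc, Ndufs, Ndufv or Ndufaf and a number, with Uqcr, with Cox4 to Cox8, or with Atp5. Of the 54525 genes in the table, 89 fitted. They comprise 37 genes of complex I subunits, 8 complex I assembly factors (the Ndufaf genes), 8 genes of complex III, 18 of complex IV and 18 named for ATP synthase. By this name rule Ndufa4 and Ndufa4l2 are counted with complex I, although the NDUFA4 protein is known as a subunit of complex IV. Complex II, cytochrome c1 (Cyc1), cytochrome c (Cycs) and the acyl carrier subunit Ndufab1 are outside the rule and are given as related genes. Ndufb1-ps, described in the table as the gene of subunit B1, is also outside because its class is not protein-coding.

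The 6 samples were 3 of ABAT cKO and 3 of WT CD4+ T cells. ABAT (4-aminobutyrate aminotransferase) is a mitochondrial enzyme that breaks down GABA. In the ABAT cKO mice the floxed Abat allele is deleted by Cre under Cd4 control, and so in the T lineage; they derive from an Abat tm1a line crossed to a Flippase line. The WT samples were from C57BL/6 mice, and whether those carried Cre or came from the same litters is not given in the sources used here. Cells of both genotypes came from lymph nodes and spleen of C57BL/6N mice aged 6 to 8 weeks per the labels, and were cultured as TH0 cells for 36 h with IL-2 on plate-bound antibodies to CD3 and CD28, with no polarizing cytokines. The 2 genotypes were activated and harvested separately, so an effect of genotype and one of separate handling cannot be told apart.

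In the inner mitochondrial membrane, complex I takes electrons from NADH and complex III passes them through cytochrome c to complex IV, which reduces oxygen. Complexes I, III and IV pump protons, and ATP synthase uses the return of protons to make ATP. Most of the subunits are encoded in the nucleus, a few in mitochondrial DNA, and resting T cells are known to expand their mitochondria on activation.

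Each library held between 19566016 and 24396746 counts on genes. The targeted gene could not check the labels: Abat had 7, 3 and 2 counts in the ABAT cKO samples and 5, 1 and 0 in the WT samples. The first principal component, with 63.7% of the variance, separated the 3 ABAT cKO from the 3 WT libraries. On the second, with 17.7%, ABAT cKO replicate 1 and WT replicate 3 stood apart from the other 4 libraries. The CD4 T cell markers were present in every sample, with summed levels of 3407 to 3544 CPM (a gene's counts relative to the library total, scaled by the TMM method) in ABAT cKO and 3908 to 4000 in WT; 7 of the 10 fell. Several lists of markers of other cells differed between genotypes: B cell markers summed to 99.9 to 104 CPM in ABAT cKO and 243 to 266 in WT, with 6 of 7 tested lower, and CD8 markers to 5.62 to 6.49 in ABAT cKO and, from the lowest, 7.50, 21.35 and 24.2 in WT. NK markers summed to 6.35 to 7.51 in ABAT cKO and, from the lowest, 5.37, 19.5 and 22.5 in WT, so the genotypes overlapped. Most of the NK sum was Eomes, which fell, while the other 2 tested (Klrb1c and Ncr1) rose. The sums of gamma delta markers were 8.07 to 8.32 in ABAT cKO and 2.61 to 4.61 in WT, and those of myeloid markers 2.52 to 4.03 in ABAT cKO and 0.774 to 1.3 in WT. Their part in the results was not tested, and in bulk samples fewer cells of a type and less RNA per cell cannot be told apart.

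As a set, the genes for the respiratory chain and ATP synthase were at close to the same level in both genotypes. Of the 81 that had enough counts to test, 4 rose (Cox6a2, Uqcrq, Ndufa13 and Atp5g1), 8 fell (Ndufa11, Ndufs7, Ndufaf4, Uqcrh, Cox7b, Atp5c1, Atp5d and Atp5mpl) and 69 did not pass edgeR's quasi-likelihood test at an adjusted p of 0.05. Cox6a2 passed the filter on low counts only through the ABAT cKO samples, so its call is a description. With Cox6a2 included, the share called was 14.8%, and 31.5% of all 13605 genes tested were called. In each direction, 4.94% of the 81 rose and 9.88% fell, whereas 18.1% of all genes rose and 13.4% fell. The 8 that fell did so by 9.98% to 14.8%, and none of the 81 was lower by 20% or more.

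The median log2 fold change of the 81 genes was -0.012, and that of all genes tested 0.0046. Below 0 were 42 of the 81, against 49.2% of all genes. The CPM of the 3 ABAT cKO samples all lay above those of the 3 WT samples for 7 of the 81 (8.64%, against 25.4% of all genes), and all lay below them for 16 (19.8%, against 20.5%). These genes are well expressed, and 64 of them had an average log2 CPM of at least 5: among those, 3 rose (4.69%) and 7 fell (10.9%), where 22.3% of all 5789 genes at that level rose and 17.4% fell. The 95% interval stayed within a 1.2-fold change either way for 61 of the 81 (75.3%, against 31.5% of all genes at any level). It stayed within 1.5-fold for 78 (96.3%, against 62.7%). Such counts depend on the size of the difference as well as on its precision.

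**Figure D1:**
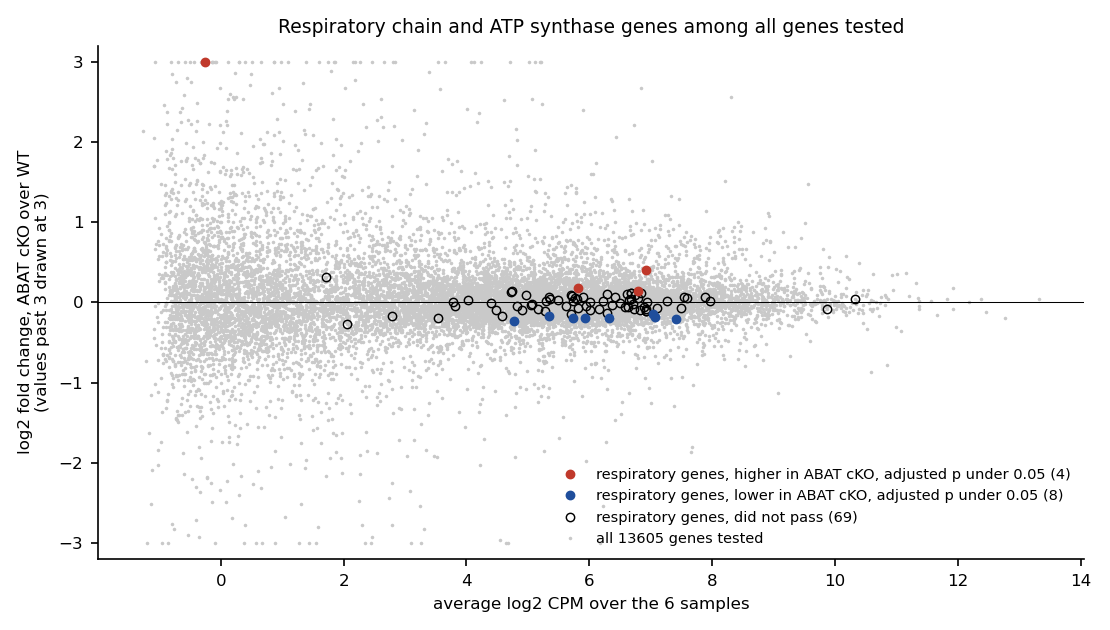
Each of the 13605 tested genes is a dot, with average log2 CPM over the 6 samples on the x axis and log2 fold change of ABAT cKO over WT on the y axis (values past 3 drawn at 3). The 69 open circles of respiratory genes that did not pass lie close to 0; Cox6a2 is the red point at the upper edge.

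The calls depend on the libraries and on the scaling. Without WT replicate 1, WT replicate 2, ABAT cKO replicate 1 or ABAT cKO replicate 2 the genes called lower were 2, 5, 5 and 4, and without WT replicate 2, WT replicate 3 or ABAT cKO replicate 3 those called higher were 2 each time. Over all genes the same fits called 1279, 1359, 2033 and 1326 lower (1827 in the main fit), and 2037, 2117 and 1920 higher (2464). Without both libraries that stood apart (ABAT cKO replicate 1 and WT replicate 3), a setting chosen after seeing the data, 11 were called higher and 9 lower. Counts over all genes for that setting are not given here. When the libraries were scaled to their added spike-in RNA, 2 were called higher and 0 lower, and by library size alone 2 and 13. Of all 13605 genes, spike-in scaling called 1339 higher and 1185 lower, and library size alone 2139 and 2285.

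The level of each complex was compared by summing the CPM of its genes in each sample. Complex I subunit genes summed to 1970, 2050 and 2143 CPM in the ABAT cKO samples and to 2069, 2024 and 2063 in the WT samples, so the groups overlapped and the means differed by 0.12%. For complex III the means were 890 ± 39 CPM in ABAT cKO and 881 ± 7 in WT (SD, n = 3 each), and for complex IV 1295 ± 44 in ABAT cKO and 1285 ± 24 in WT. ATP synthase genes averaged 3884 ± 149 CPM in ABAT cKO and 3955 ± 67 in WT. In CPM the 8 assembly factors were the one group of the 5 without overlap: 152, 156 and 162 CPM in ABAT cKO, below 173, 169 and 165 in WT. Ndufaf4 carried that gap, since the 7 others summed to 98.6, 98.3 and 104.4 CPM in ABAT cKO and 104.7, 102.5 and 105.9 in WT, which overlapped. As a share of all counts ATP synthase genes did not overlap either, at 0.3683%, 0.3865% and 0.3954% in ABAT cKO and 0.4032%, 0.3965% and 0.3996% in WT. With 3 against 3 samples an exact two-sided permutation test cannot give a p below 0.1. All 89 genes together took 0.817% ± 0.030 of the counts in ABAT cKO and 0.843% ± 0.009 in WT (SD, n = 3 each).

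**Figure D2:**
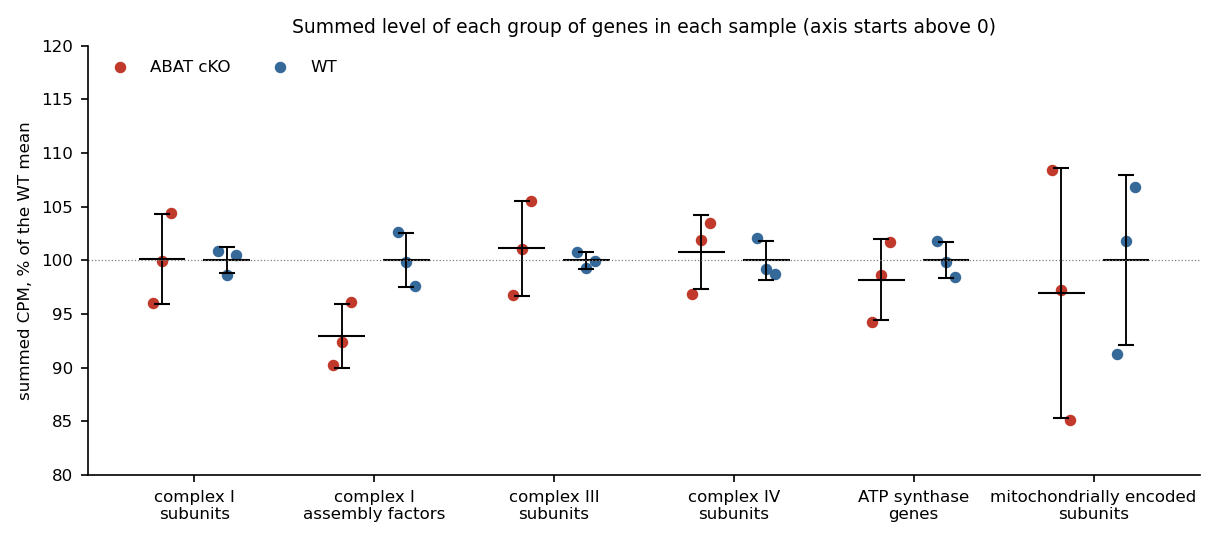
Summed CPM of each group of genes in each sample, as a percent of the WT mean (y axis, starting above 0), with ABAT cKO in red and WT in blue; lines are means and bars are SD (n = 3 each). On this scale complex I, III and IV and ATP synthase overlap between genotypes and the assembly factors do not (as shares of counts, ATP synthase does not overlap either), and the mitochondrially encoded subunits spread most.

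Complex I genes hardly differed between genotypes: of 36 tested, 1 rose, 2 fell and 33 did not pass. Ndufa11, an accessory subunit of the membrane arm, fell. It had 24.2, 25.5 and 25.1 CPM in ABAT cKO and 30.1, 28.2 and 29.5 CPM in WT (log2 fold change -0.23, SE 0.06, adjusted p = 0.01, edgeR). Every ABAT cKO sample was below every WT sample, and Ndufa11 was called in all 6 fits that left out 1 sample. Ndufa13, an accessory subunit also known as GRIM-19, rose: 60.6, 56.9 and 62.4 CPM in ABAT cKO, against 56.6, 49.9 and 52.5 CPM in WT (log2 fold change 0.18, SE 0.06, adjusted p = 0.0419, edgeR). The groups were apart by less than 1 CPM, the call was lost without WT replicate 2 (adjusted p = 0.159), WT replicate 3 (0.0983), ABAT cKO replicate 1 (0.0653) or ABAT cKO replicate 3 (0.173), and Ndufa13 shares 375 exonic bases with Tssk6 on the opposite strand. Whether counting used strand is not given in the sources used here.

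The 7 core subunits, which carry the electron path, were tested and 1 passed. Ndufs7 holds the last iron-sulfur cluster before the quinone, and it fell, with 36.4, 36.4 and 41.0 CPM in ABAT cKO and 43.4, 42.0 and 43.1 CPM in WT. Its log2 fold change was -0.18, and the call was lost in 5 of the 6 fits without 1 sample, all but that without ABAT cKO replicate 3 (adjusted p of 0.0776 to 0.159 in the others).

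Of the core subunits that did not pass, Ndufs1, Ndufs3, Ndufv2, Ndufv1 and Ndufs8 had log2 fold changes of -0.11, -0.07, -0.03, -0.01 and 0.01. Of the 28 accessory subunits 1 rose and 1 fell, and their median was 0.03. Among those that did not pass, Ndufb7 of the membrane arm had a log2 fold change of -0.15 (adjusted p = 0.0592, edgeR) and Ndufc1, a small membrane arm subunit, 0.15 (adjusted p = 0.0822). Ndufb1-ps, outside the rule, had 36.3, 35.1 and 42.9 CPM in ABAT cKO and 36.2, 37.0 and 35.5 in WT, and did not pass.

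**Figure D3:**
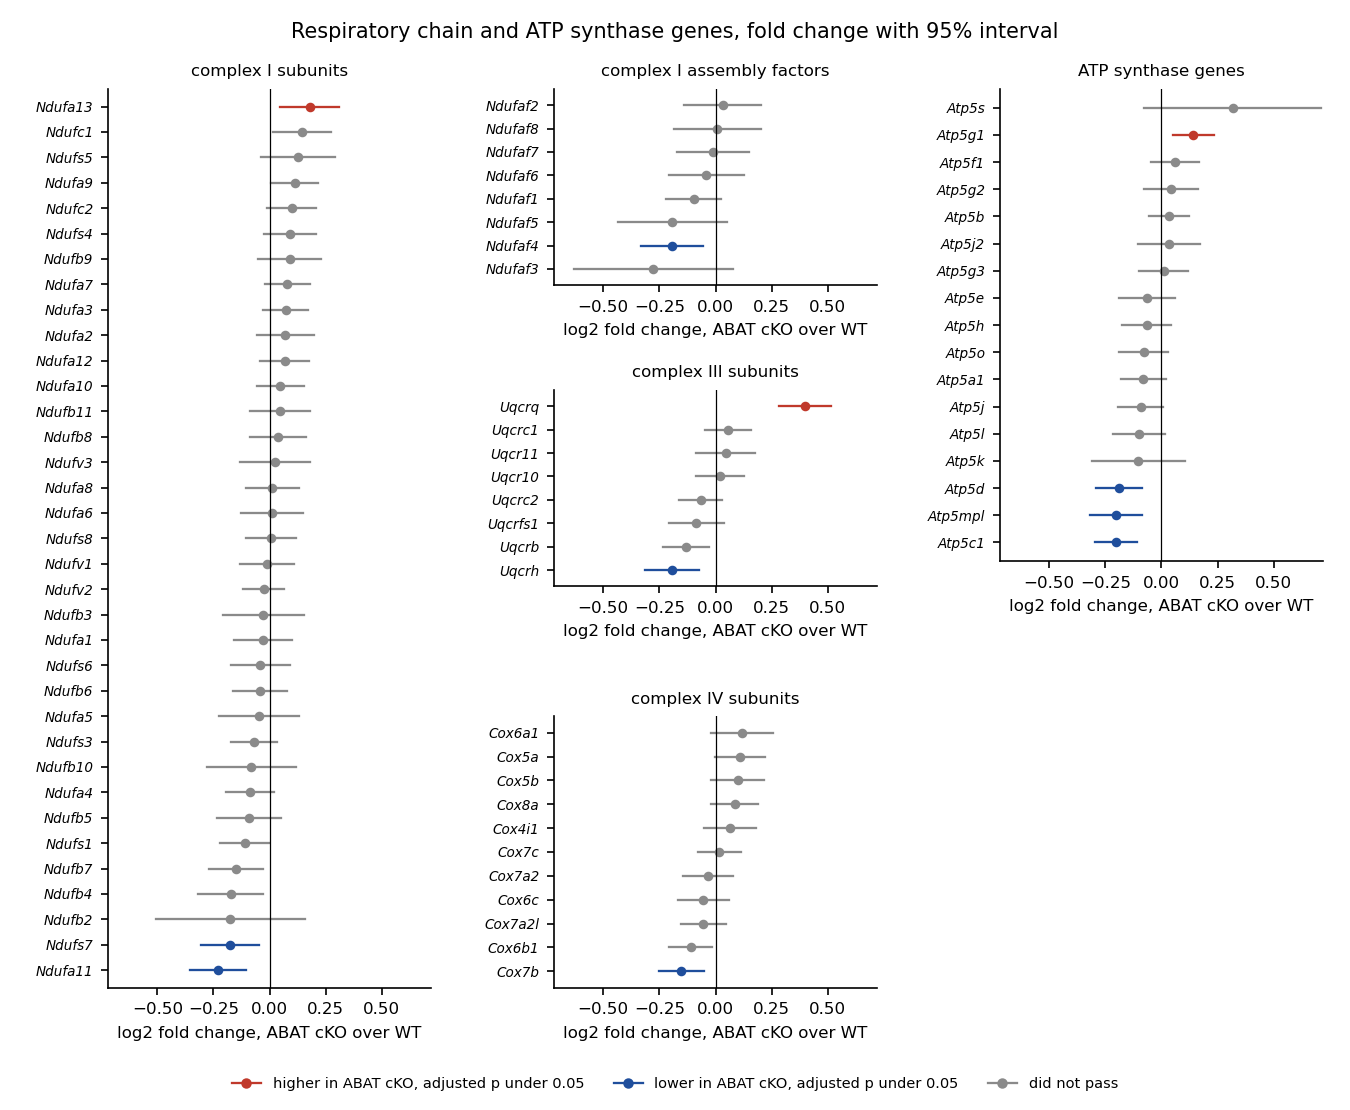
Log2 fold change of ABAT cKO over WT (x axis, points) with its 95% interval (lines) for 79 of the tested genes in 5 panels by complex; Cox6a2, which had no count in WT, is not drawn. Red genes rose and blue genes fell at an adjusted p of 0.05, and Uqcrq lies farthest right among those that passed.

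The assembly factors build complex I and are not part of the finished enzyme. Of the 8, 1 fell, 0 rose and 7 did not pass (at an unadjusted p of 0.05, 1 passed; DESeq2 also called 1 lower and 0 higher). Ndufaf4, which acts early in building the quinone module, fell: 53.9, 57.7 and 58.0 CPM in ABAT cKO and 68.7, 66.3 and 59.0 CPM in WT (log2 fold change -0.19, SE 0.06, adjusted p = 0.0371, edgeR). The highest ABAT cKO sample was just below the lowest WT sample, and the call held in 1 of the 6 fits that left out 1 sample, that without WT replicate 3. Ndufaf3, its known partner, had 3.48, 3.66 and 3.80 CPM in ABAT cKO and 4.02, 4.04 and 5.23 CPM in WT, without overlap (log2 fold change -0.28, adjusted p = 0.223). Its exons share 48 bases with Impdh2 on the opposite strand, a gene with far more counts. Ndufaf1, of the membrane arm assembly complex, had 21.9, 21.0 and 21.7 CPM in ABAT cKO and 22.8, 23.1 and 23.1 in WT and did not pass (adjusted p = 0.217). Ndufaf5, which hydroxylates NDUFS7, did not pass either (log2 fold change -0.19, SE 0.11, adjusted p = 0.215). Ndufaf2, a late chaperone related to Ndufa12, and Ndufaf8, the partner of NDUFAF5, had log2 fold changes of 0.03 and 0.01.

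Apart from Cox6a2, the largest difference of the tested genes was in complex III. Of 8 genes tested, 1 rose, 1 fell and 6 did not pass. Uqcrq, a small accessory subunit, had 129, 140 and 143 CPM in ABAT cKO and 102, 101 and 109 CPM in WT. The gap between the groups was wide relative to their spread (log2 fold change 0.40, SE 0.05, adjusted p = 2.57e-04, edgeR), which is a level 32.0% higher. Uqcrq was called in each of the 16 alternatives of normalization, filter, model and left-out samples that were run, with log2 fold changes of 0.35 to 0.48, and none of its transcripts' 75-base windows occurred in another gene. The gene lies on the minus strand at chr11:53427922-53430831 (GRCm38, GENCODE vM21), in 3 exonic blocks.

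Several neighbours of Uqcrq also rose. Within 200000 bases 6 other genes were tested, of which 4 were called, all higher, where 18.1% of all genes tested were called higher. The 4 were Zcchc10 (log2 fold change 0.24), Sept8 (0.93), Kif3a (0.89) and Il4 (3.11), the type 2 cytokine gene. Il4 had 96 counts over the ABAT cKO samples and 12 over the WT samples. It could not have passed the filter on low counts without the ABAT cKO samples, so its call is given as a description. The nearest of the 6, Aff4, 6092 bases away, did not pass (0.05), nor did Hspa4 (-0.10). These genes were looked up after Uqcrq was seen to rise, and a relation between them was not tested. The Zcchc10 call was lost without WT replicate 3 (adjusted p = 0.0731), ABAT cKO replicate 2 (0.0652) or ABAT cKO replicate 3 (0.0884).

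Uqcrh, the hinge protein beside cytochrome c1, moved the other way. It had 70.3, 74.2 and 79.4 CPM in ABAT cKO and 86.2, 81.9 and 88.0 CPM in WT (log2 fold change -0.19, SE 0.05, adjusted p = 0.0207, edgeR). The groups did not overlap, but the call was lost without WT replicate 1 (adjusted p = 0.0735), WT replicate 3 (0.0544) or ABAT cKO replicate 2 (0.0754). Uqcrb, another small subunit, just missed the threshold with a log2 fold change of -0.13 (adjusted p = 0.0527). The catalytic Rieske protein Uqcrfs1 averaged 118 ± 8 CPM in ABAT cKO and 125 ± 4 in WT, and the core protein Uqcrc1, the highest of the complex, 195 ± 9 in ABAT cKO and 188 ± 4 in WT (SD, n = 3 each); neither passed.

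In complex IV, a rare tissue isoform was counted in ABAT cKO alone. Of its 12 genes tested, 1 rose, 1 fell and 10 did not pass. Cox6a2, the form of subunit 6a typical of heart and skeletal muscle, had 36, 27 and 32 counts in the ABAT cKO samples and 0, 0 and 0 in the WT samples. Taken against a floor of 3 counts over the WT group it was at least 35.2-fold higher in ABAT cKO. It passed the filter on low counts only through the ABAT cKO samples, so its call is given as a description. The transcript stayed rare: its counts were 1.78%, 1.21% and 1.41% of those of Cox6a1 and Cox6a2 together in ABAT cKO, and none of 6591 in WT, which allows up to 0.056% (exact Clopper-Pearson 95% interval, for counting error only). Cox6a1, the form used in most tissues, averaged 106 ± 9 CPM in ABAT cKO and 97.8 ± 3.5 in WT (SD, n = 3 each) and did not pass.

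A filter for at least 10 counts in every sample removed Cox6a2. The gene lies on the minus strand at chr7:128205435-128206387 (GRCm38), and 70 bases of its exons overlap Itgad on the opposite strand, for which 3 counts were found in ABAT cKO and 0 in WT. Of 5 other genes tested within 200000 bases, 1 fell (Rgs10, log2 fold change -0.40) and 4 did not pass. Cells known to express Cox6a2 were looked at through markers added after the data were seen. Of 8 striated muscle markers, Actc1, Myh6 and Myh7 had 0 counts, and the sum over the list was 0.832 to 1.21 CPM in ABAT cKO and 2.20 to 2.56 in WT. Of 6 markers of plasmacytoid dendritic cells, Klk1 had 0 counts, and Siglech had 0 in the ABAT cKO samples and 2 in 1 WT sample. The list summed to 79.8 to 83.5 CPM in ABAT cKO and 95.5 to 109 in WT. Of its 3 tested genes Pacsin1 fell, with 27.7, 24.8 and 25.8 CPM in ABAT cKO and 55.4, 54.5 and 54.2 CPM in WT, and Bst2 and Tcf4 had log2 fold changes of 0.195 and 0.02 and did not pass. The part of such cells in the Cox6a2 counts was not tested.

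The other tissue forms were at the edge of detection. Cox6b2, known from testis, had 15, 10 and 14 counts in ABAT cKO and 7, 7 and 7 in WT, too few to enter the test. It was 0.557% ± 0.148 of the Cox6b counts in ABAT cKO and 0.249% ± 0.017 in WT (SD, n = 3 each), without overlap. Ndufa4l2, a relative of Ndufa4 known to be induced by low oxygen, had 1, 3 and 2 counts in ABAT cKO and 0, 0 and 0 in WT. Its exons share 32 bases with Shmt2 on the opposite strand, which had 44858 counts in ABAT cKO and 31023 in WT. Cox7a1, a muscle form, had 7, 0 and 2 counts in ABAT cKO and 4, 6 and 7 in WT. Cox4i2 had 1 count in all, and Cox7b2, Cox8b, Cox8c and the duplicate gene model Atp5o.1 had 0 in every sample.

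Cox7b, which encodes a small subunit, was the one complex IV gene that fell: 119, 128 and 127 CPM in ABAT cKO and 137, 143 and 136 CPM in WT (log2 fold change -0.15, SE 0.05, adjusted p = 0.0293, edgeR). The samples of the genotypes did not overlap, yet the call was lost without WT replicate 1, WT replicate 2, ABAT cKO replicate 1 or ABAT cKO replicate 2 (adjusted p of 0.055 to 0.124). Cox6b1, which bridges the dimer, had a log2 fold change of -0.11 and Cox5a 0.11, and neither passed (adjusted p = 0.0778 and 0.124). Cox4i1, the highest of the complex, averaged 189 ± 11 CPM in ABAT cKO and 181 ± 8 in WT, and Cox8a, Cox7a2 and Ndufa4 had log2 fold changes of 0.08, -0.03 and -0.09, also without passing.

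**Figure D4:**
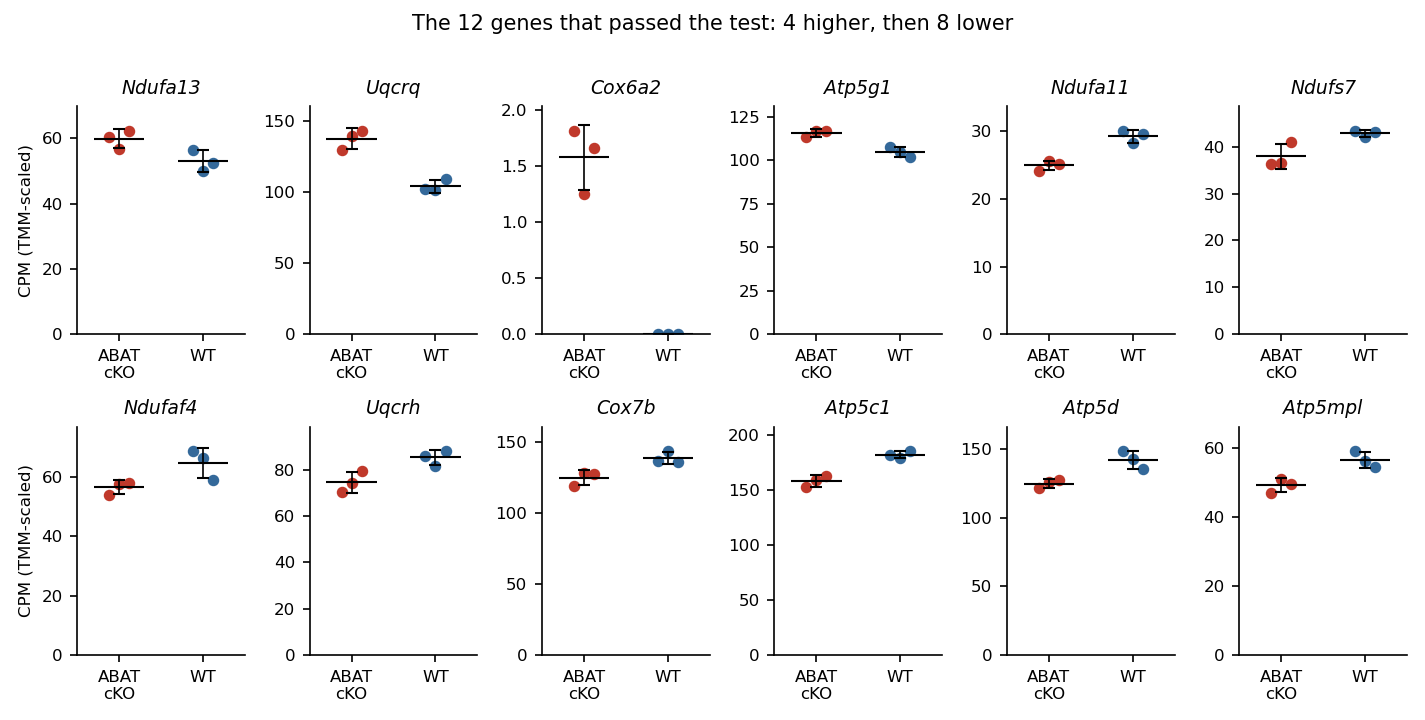
CPM (y axis, from 0) in each sample of the 12 genes that passed the test, ABAT cKO in red and WT in blue; horizontal lines are means and bars are SD (n = 3 each). Uqcrq and Cox6a2 stand clear of WT, and the 8 genes that fell differ by at most 14.8%. Cox6a2 entered the test only through the ABAT cKO samples.

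Among the ATP synthase genes, 2 of the central stalk and 1 of the membrane part fell, and 1 of the c-ring rose. Of 17 genes tested, 1 rose, 3 fell and 13 did not pass. Atp5c1 encodes subunit gamma, the rotating shaft, and had 153, 159 and 163 CPM in ABAT cKO and 182, 180 and 185 CPM in WT (log2 fold change -0.20, SE 0.04, adjusted p = 0.00429, edgeR). Atp5d encodes subunit delta at the foot of that shaft, and had 121, 126 and 128 CPM in ABAT cKO and 148, 143 and 136 CPM in WT (log2 fold change -0.19, SE 0.05, adjusted p = 0.0112). Both were below WT in every sample. Atp5c1 was called in all 6 fits without 1 sample, and Atp5d in 5, all but that without WT replicate 1 (adjusted p = 0.0642). Atp5mpl, a small membrane proteolipid of the enzyme, fell to 47.1, 51.1 and 49.7 CPM in ABAT cKO, against 59.1, 56.3 and 54.6 CPM in WT, and was likewise lost without WT replicate 1 (adjusted p = 0.069).

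The other genes of the F1 head and stalk did not pass. Atp5b, the catalytic beta subunit and the highest of all 89 genes, averaged 1299 ± 38 CPM in ABAT cKO and 1268 ± 38 in WT. Atp5a1, subunit alpha, averaged 910 ± 44 in ABAT cKO and 962 ± 26 in WT (SD, n = 3 each), and Atp5e, subunit epsilon of the stalk, 116 ± 6 in ABAT cKO and 121 ± 7 in WT. Per kilobase of exon the order from the top was Atp5b, Atp5a1, Atp5g3 and Cox4i1 in both genotypes: 678, 340, 291 and 248 CPM per kilobase in ABAT cKO and 662, 360, 289 and 237 in WT.

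Atp5g1, Atp5g2 and Atp5g3 encode the same mature c subunit of the proton-driven ring with different import sequences. Atp5g1 rose, with 113, 117 and 117 CPM in ABAT cKO and 108, 105 and 102 CPM in WT (log2 fold change 0.14, adjusted p = 0.0248). It made up 25.3%, 24.2% and 24.4% of the counts of the 3 genes in ABAT cKO and 23.2%, 23.1% and 22.9% in WT. The shift was thus 1 to 2 percentage points, and the call was lost without WT replicate 2 (adjusted p = 0.0789), WT replicate 3 (0.124), ABAT cKO replicate 2 (0.0924) or ABAT cKO replicate 3 (0.132). Atp5g2 and Atp5g3 had log2 fold changes of 0.04 and 0.01 and did not pass. Atp5s, also called coupling factor B, had the largest fitted difference after Cox6a2 and Uqcrq (0.32), at 3.56 ± 0.31 CPM in ABAT cKO and 2.85 ± 0.39 in WT, with overlapping groups and an adjusted p of 0.208.

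The promoters of the genes that fell were looked at for the sites of known regulators of respiratory genes. RefSeq promoters (GRCm38.p6, 250 bases before to 50 after the start) were at hand for 72 of the 89 genes, among them 7 of the 8 that fell but neither Uqcrq nor Cox6a2. Letters of the NRF1 site, GCGCATGC, were found on either strand in 15.3% of the 72 genes, against 3.93% of all 17491 protein-coding genes with such promoters. The YY1 site AAGATGGC was in 15.3%, against 3.57%, and the ETS site CCGGAAG bound by GABPA in 22.2%, against 12.9%. The ATF4 response site TGATGNAA was in 0 of the 72, against 4.13% of all. In the promoters shown no match of one motif overlapped that of another, though GCGCATGC overlaps its own reverse where the longer palindrome occurs. A match is a run of letters, not a site shown to be bound.

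Of the 7 lower genes with a promoter, 4 held a match, and these 4 are shown because they are the genes that fell for which a site can be seen. The capitals mark an NRF1 site in Ndufa11 (chr17:56717512-56717811, plus strand, from 60 bases before the start) and in Ndufaf4 (chr4:24897833-24898132, plus strand, from 113 before and again from base 2 after), a YY1 site in Ndufs7 (chr10:80249199-80249498, plus strand, from base 25 after the start) and the reverse of the ETS site in Uqcrh (chr4:116075021-116075320, minus strand, from 10 before).
Ndufa11: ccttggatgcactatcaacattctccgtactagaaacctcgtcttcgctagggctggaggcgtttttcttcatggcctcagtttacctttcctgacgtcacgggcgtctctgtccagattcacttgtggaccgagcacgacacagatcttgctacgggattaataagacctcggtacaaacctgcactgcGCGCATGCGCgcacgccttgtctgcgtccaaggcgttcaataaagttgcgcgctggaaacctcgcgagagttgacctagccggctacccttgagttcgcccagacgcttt
Ndufaf4: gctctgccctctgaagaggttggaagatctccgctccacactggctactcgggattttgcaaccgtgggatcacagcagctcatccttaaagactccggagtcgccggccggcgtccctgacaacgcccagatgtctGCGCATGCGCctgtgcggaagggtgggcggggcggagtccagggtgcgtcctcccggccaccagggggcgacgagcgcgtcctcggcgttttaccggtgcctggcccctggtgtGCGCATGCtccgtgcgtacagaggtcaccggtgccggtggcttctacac
Ndufs7: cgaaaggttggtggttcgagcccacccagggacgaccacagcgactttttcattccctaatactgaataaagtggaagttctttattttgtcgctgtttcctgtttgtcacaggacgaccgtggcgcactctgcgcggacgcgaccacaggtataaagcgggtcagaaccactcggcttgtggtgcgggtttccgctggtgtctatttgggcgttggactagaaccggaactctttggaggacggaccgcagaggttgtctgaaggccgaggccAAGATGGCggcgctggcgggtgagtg
Uqcrh: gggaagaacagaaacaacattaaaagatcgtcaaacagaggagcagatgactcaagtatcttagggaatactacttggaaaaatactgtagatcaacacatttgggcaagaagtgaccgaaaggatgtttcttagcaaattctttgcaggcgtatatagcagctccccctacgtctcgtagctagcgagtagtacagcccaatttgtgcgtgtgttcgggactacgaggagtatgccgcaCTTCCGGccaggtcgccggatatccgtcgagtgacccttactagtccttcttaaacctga
Atp5c1, Atp5d and Cox7b held none of the 4 letter strings, as did Ndufa13 and Atp5g1, which rose. By motif, 28.6% of the 7 that fell held the NRF1 site, 14.3% the YY1 site and 14.3% the ETS site. Among the 59 genes with a promoter that did not pass, 15.3% held the NRF1 site, 16.9% the YY1 site and 25.4% the ETS site. Matches were thus found in genes that fell and in genes that did not.

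The regulators themselves were tested as a list of 11, of which 10 had enough counts. Nrf1 rose, with 68.6, 68.3 and 62.9 CPM in ABAT cKO and 60.0, 55.8 and 60.1 CPM in WT (log2 fold change 0.19, adjusted p = 0.0219, edgeR). Tfb1m, the methyltransferase of mitochondrial ribosomal RNA, and Tfb2m, a mitochondrial transcription factor, fell by 0.31 and 0.21 on the log2 scale. The calls of Nrf1 and Tfb2m rest on single libraries: Nrf1 was lost without WT replicate 2 (adjusted p = 0.0929) or ABAT cKO replicate 2 (0.0897), and Tfb2m without WT replicate 1 (0.0543) or ABAT cKO replicate 2 (0.0709). The other 7 tested did not pass, among them Gabpa (-0.03), Yy1 (0.08), Tfam (-0.02) and Ppargc1b (-0.01), and Ppargc1a had 1 count in all.

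Of 22 tested genes for complex IV assembly and its copper or haem supply, 4 rose, 4 fell and 14 did not pass. The share called was 36.4%, close to the 31.5% of all genes tested. Sco1, which hands copper to the second subunit, had 45.3, 48.3 and 50.6 CPM in ABAT cKO and 34.1, 32.4 and 28.0 CPM in WT, the largest rise of the list (log2 fold change 0.61, SE 0.07, adjusted p = 1.75e-04, edgeR). Surf1, the assembly factor mutated in Leigh syndrome, Cmc2 and Cox11, which delivers copper to the first subunit, also rose (log2 fold changes 0.35, 0.42 and 0.22). Cox14 and Coa3, which act on the newly made first subunit, fell, as did Pet100 and Coa5 (-0.32, -0.24, -0.30 and -0.15). Cox11, Pet100 and Coa5 each lost the call in 5 of the 6 fits that left out 1 sample (Cox11 all but that without ABAT cKO replicate 2, Pet100 likewise, Coa5 all but that without WT replicate 3), and the other 5 kept it in each. Sco2, the partner of Sco1, had a log2 fold change of 0.01.

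Outside complex IV the inhibitor of ATP synthase moved most. Atpif1, which blocks ATP hydrolysis by the enzyme, had 38.8, 38.4 and 35.9 CPM in ABAT cKO and 27.7, 23.9 and 24.9 CPM in WT (log2 fold change 0.57, SE 0.07, adjusted p = 1.25e-04, edgeR). The 4 assembly genes listed with it did not pass. Higd1a, a small protein bound to complex IV and its supercomplexes, rose with 51.9, 50.8 and 61.1 CPM in ABAT cKO and 43.6, 44.3 and 43.7 CPM in WT. Acad9, which builds the membrane arm of complex I together with Ndufaf1 and Ecsit, fell with 39.3, 40.0 and 36.9 CPM in ABAT cKO and 49.5, 46.3 and 47.1 CPM in WT (log2 fold change -0.30). The 7 others of its list and the 6 complex III assembly genes did not pass.

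The respiratory chain genes outside the name rule gave no call. Of Cyc1, Cycs, Ndufab1 and the 4 complex II genes, 0 of 7 passed in edgeR (3 had an unadjusted p under 0.05), and their log2 fold changes were between -0.12 and 0.12. Over the related lists together, with the mitochondrially encoded subunits, 71 genes were tested (Cox7a2l, also one of the 89, among them). Of these 7 rose (9.86%, against 18.1% of all genes) and 9 fell (12.7%, against 13.4%).

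**Figure D5:**
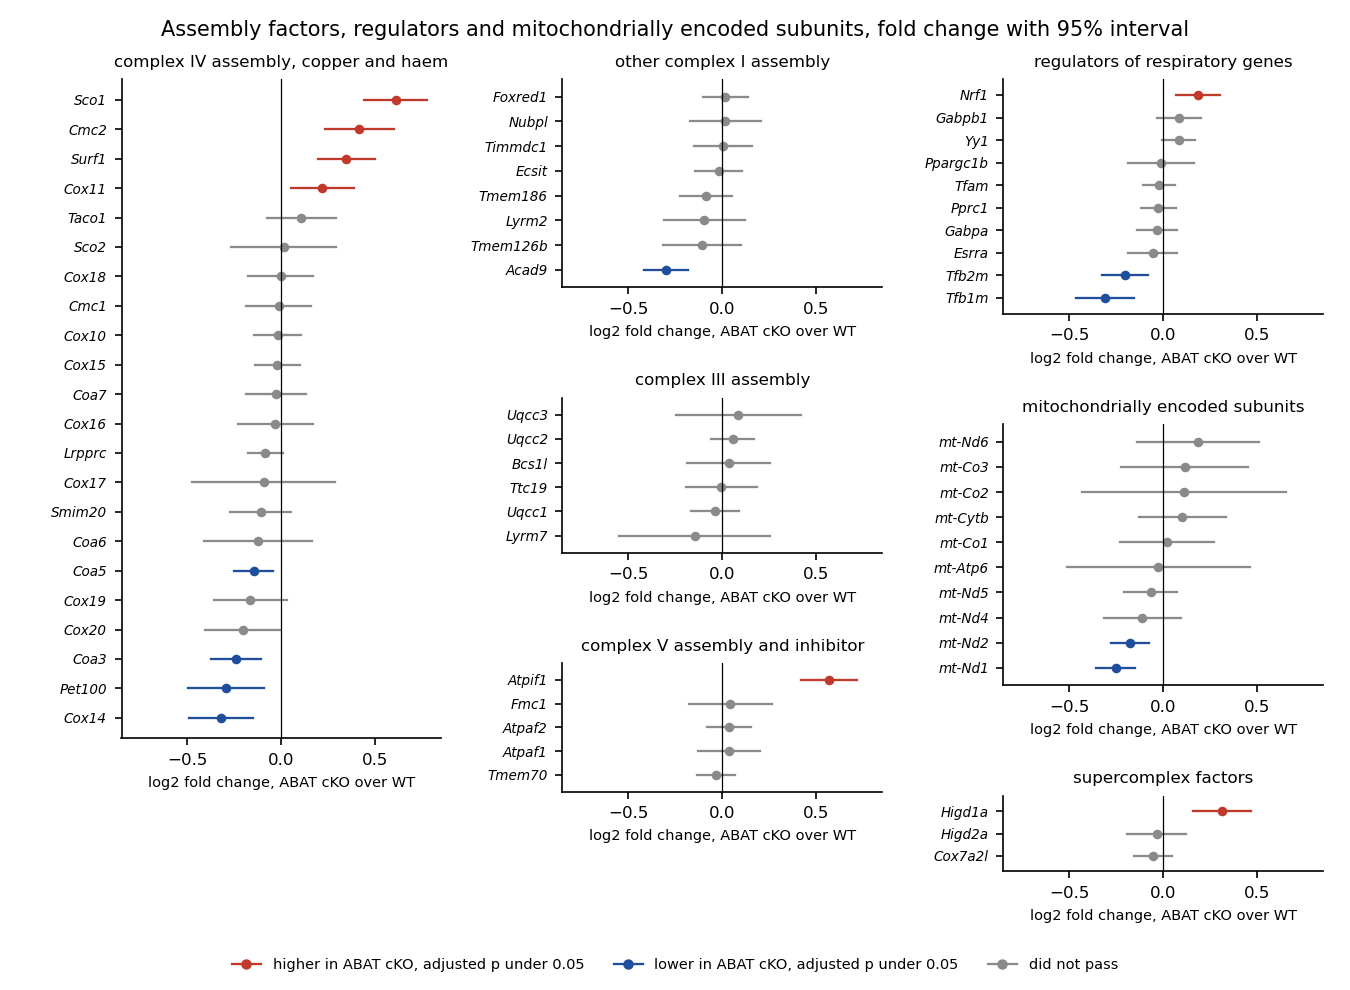
Log2 fold change of ABAT cKO over WT (x axis, points) with its 95% interval (lines) for assembly factors, regulators and mitochondrially encoded subunits, in panels by list. Sco1 (0.61) and Atpif1 (0.57) lie farthest right; Cox14 (-0.32) and Tfb1m (-0.31) farthest left.

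The partner subunits encoded in mitochondrial DNA were counted unevenly. mt-Nd1, a complex I subunit, fell with 1327, 1281 and 1225 CPM in ABAT cKO and 1450, 1556 and 1566 CPM in WT (log2 fold change -0.25, adjusted p = 0.00187, edgeR), and mt-Nd2 fell by 0.18 on the log2 scale, a call lost without WT replicate 1 (adjusted p = 0.0733), WT replicate 2 (0.0633) or ABAT cKO replicate 2 (0.078). The other 8 tested did not pass, with mt-Co1 at 3472, 3148 and 2547 CPM in ABAT cKO and 2591, 3068 and 3371 in WT. mt-Co2 and mt-Co3, neighbours of mt-Co1 in the same genome, had at most 1.67 and 4.21 CPM, so counts of these genes are not comparable with each other. Summed, they came to 7695, 6903 and 6042 CPM in ABAT cKO and 6480, 7227 and 7583 CPM in WT, with overlapping groups.

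Some counts may be shared with look-alike genes. Of the 89 genes, 51 had no 75-base stretch in common with another gene's transcripts, and 19 had at least 10% of their stretches in common, most with processed copies or with a gene on the opposite strand. Among the 12 called genes, Ndufa13 (25.6%, all with Tssk6), Atp5g1 (7.29%), Uqcrh (2.56%) and Ndufa11 (0.453%) had any. Exons of Ndufa11 and Atp5d overlap Vmac (70 bases) and Cbarp (68 bases) on the opposite strand.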

How the data were processed

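RNA of 3 ABAT cKO and 3 WT samples was depleted of ribosomal RNA and sequenced as 150-base pairs. The authors deposited raw counts per gene for GRCm38 (also called mm10), with normalized counts (a signal scaled per sample) beside them. The paper's methods name TopHat2 and HTSeq, the submitters' processing notes Trim Galore 0.60, STAR 2.7 and RSEM 1.31; which made the counts, and whether strand was used, is not settled by the sources used here. The normalized signal deposited by the authors was used only to check that each sample was scaled by 1 factor (0 of 82 genes with values were off by more than 0.1%). The table also gives exon lengths in bases, deposited by the authors as another kind of value, which served for levels per kilobase; columns with the authors' group means, fold change and adjusted p were not used.

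The 92 spike-in rows were kept out of library sizes and tests. Counts were tested with edgeR 4.0.16 (R 4.3.3; TMM scaling, filterByExpr, quasi-likelihood F test, genotype as the only term), with Benjamini-Hochberg adjustment over all 13605 genes tested and a threshold of 0.05. DESeq2 1.42.0 was an alternative; others were size factors, library size alone, spike-in scaling, filters, protein-coding genes alone, length offsets, a replicate block, a threshold of 0.01 and leaving out each sample. The script was tested on simulated data, where it recovered 24 of 50 genes changed 1.2-fold and 46 of 50 changed 1.5-fold, with 17 false calls. A gene that did not pass can thus still differ by a small amount. Promoters came from RefSeq and positions from GENCODE vM21; 99.9% of gene IDs matched.

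The genes, lists and tests were chosen with earlier results of these data known. Named genes: Abat; per group the 4 with the smallest adjusted p, the 2 smallest of the other direction, the highest in CPM and the largest fold change; all tissue isoforms with counts; per related list up to 3 with the smallest p and 1 of the other direction. Other names were added after their values were seen. A result of 1 gene that the rule names is not reported here. The samples are separate per the study, but whether each was 1 mouse is not given in the sources used here, so p-values measure the spread between these samples. Intervals on counts cover counting error only.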

Additional observations from a re-analysis of the deposited data

How the results depend on the processing

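Of all values compared with an alternative, 1699 kept their direction and side of the threshold or stayed within their spread, 117 lost and 26 gained a call, 119 moved and 2 reversed. By library size alone, 2 of the 81 genes were called higher (against 4) and 13 lower (against 8), with complex I at 0 higher and 5 lower, complex III and complex IV at 2 lower each and ATP synthase at 0 higher. That scaling called 2139 higher and 2285 lower of all genes (against 2464 and 1827). Scaled to the spike-ins, 2 were called higher and 0 lower, with 0 in either direction for complex I and ATP synthase, 0 lower in the assembly factors, complex III and complex IV, a median of -0.0606 (against -0.012), 3 higher and 3 lower of the related genes, and 1339 higher and 1185 lower of all genes (against 2464 and 1827). The median of all genes moved as well, to -0.0415 (against 0.0046). DESeq2 called 2 higher (1940 of all genes), with complex I at 0 higher and 1 lower and ATP synthase at 0 higher. With protein-coding genes alone 13 were lower, 5 of them in complex I, 2 in complex III and 2 in complex IV. Of the 11244 genes in that fit, 2105 were lower. Complex III also had 2 lower with DESeq2 size factors and with a minimum of 10 counts in each library, which left complex IV with 0 higher. At an adjusted p of 0.01, 2 were higher and 1 lower in ATP synthase (complex I, assembly factors, complex III and IV at 0 lower, complex I and ATP synthase at 0 higher), the related genes had 4 lower, and all genes had 1631 higher and 1051 lower.

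Leaving out 1 sample at a time gave 1911 to 2507 higher and 1279 to 2033 lower of all genes, 2 to 5 higher and 2 to 9 lower of the 81, 0 to 1 higher and 1 to 2 lower in complex I, 0 to 1 lower in the assembly factors, 0 to 2 lower in complex III, 1 to 2 higher and 0 to 1 lower in complex IV, 0 to 1 higher and 1 to 4 lower in ATP synthase, and 5 to 7 higher and 5 to 9 lower of the related genes. The median of the 81 ranged from -0.06 (without ABAT cKO replicate 3) to 0.01 and turned positive without ABAT cKO replicate 1 (0.0095). The medians of all genes in these 2 fits were -0.0016 and -0.0068. Without both ABAT cKO replicate 1 and WT replicate 3, chosen after seeing the data, 11 were higher and the median was 0.02 (0.0179), where that of all genes was -0.0035. The causes of these shifts were not tested. The fold changes of the 8 lower genes stayed negative in all alternatives, and none kept its call in every one; Uqcrq kept its call in all 16.

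Deviations of same-numbered samples correlated at -0.287, 0.116 and -0.284, and those of other pairs at -0.214 to 0.376. No pairing by number was seen, but these values cannot tell whether samples were paired in the experiment. With a replicate block, 5 of the 81 were lower (1416 of all genes), with 1 in complex I, 0 in the assembly factors, 0 in complex IV and ATP synthase at 0 higher. Genes with few counts limit the depth of these comparisons: Cox6b2, Cox7a1, Ndufa4l2 and Cox4i2 could not be tested.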

Other observations

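The summed CPM of the 89 nuclear genes and of the mitochondrially encoded subunits were set side by side after an opposite order was noticed. The nuclear sums were 7947, 8306 and 8590 CPM in ABAT cKO and 8468, 8289 and 8269 CPM in WT, and the sample with the lowest nuclear sum had the highest mitochondrial sum in either genotype. As shares of all counts the order stayed opposite in ABAT cKO. There the nuclear shares were 0.785%, 0.823% and 0.844% and the mitochondrial shares 0.760%, 0.684% and 0.594%. In WT it was not opposite: WT replicate 3 had the highest nuclear share (0.849%) and also the highest mitochondrial share (0.779%) of the 6 samples. The order in WT therefore depends on the scaling, and no test was made of the order in either genotype.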
